A study of Mus musculus with 4 samples.

Results

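SWI/SNF complexes are remodelling machines that use ATP to slide and evict nucleosomes. The 10 genes described here encode 10 of their subunits and were taken by symbol from the 56691 genes of the deposited count tables: Smarca2, Smarca4, Smarcb1, Smarcc1, Smarcc2, Smarcd1, Smarcd2, Arid1a, Arid1b and Pbrm1. All 10 had enough counts to be among the 13052 genes tested. The libraries are poly(A) RNA of Ter119+ cells from mouse bone marrow, 2 labelled Med16 KO and 2 labelled Med16 fl/fl (floxed alleles, the control), all with a time label of 3 weeks. Ter119 is a surface antigen of erythroid cells, and Med16 is a tail subunit gene of Mediator, which bridges transcription factors and RNA polymerase II. The labels name neither the Cre driver, the strain nor the animals behind each library, so the p-values cover library-to-library spread only, and that spread may be technical.

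A remodeller of this family holds 1 ATPase, either Smarca4 (BRG1) or Smarca2 (BRM), on a core with Smarcc and Smarcd subunits. The canonical form, BAF, carries Arid1a or Arid1b, and a second form, PBAF, carries Arid2 in their place and has Pbrm1 as a further subunit. Both of these forms also hold Smarcb1 in the core. In erythroid cells the BRG1 form is known for opening chromatin at the globin locus together with the transcription factor Klf1.

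The libraries held 6948951 and 6749196 assigned counts in Med16 KO and 7216333 and 7048208 in Med16 fl/fl. Genes with at least 1 count numbered 16892 and 16479 in KO, against 18947 and 19016 in fl/fl. Reads not aligned made up 2.69 and 3.27% in KO, against 1.05 and 0.83% in fl/fl. Both measures split by genotype, and their part in any fold change was not tested. Med16 itself had 16 and 30 counts in the KO libraries, against 164 and 127 in fl/fl, so the targeted gene followed the labels (log2 fold change -2.64, SE 0.34, adjusted p = 4.6e-05). Across all genes tested, 18.4% changed (edgeR quasi-likelihood test, Benjamini-Hochberg adjustment), 1109 higher and 1291 lower in KO, or 1365 higher and 1055 lower with library size as the only scaling. The sort was erythroid by its markers: 10 of 10 erythroid markers were measured, at a summed 110757 and 128121 CPM (counts scaled to library size, with TMM factors) in KO and 116845 and 119456 CPM in fl/fl, with 2 higher and 7 lower by edgeR and 1 higher and 7 lower by DESeq2. In bulk RNA, fewer cells of a type and less RNA per cell cannot be told apart.

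Pbrm1 fell and Smarcd2 rose in Med16 KO, and the other 8 did not pass the test. That is 2 of 10 called, against 18.4% of all genes, with 1 higher (8.5% of all genes) and 1 lower (9.89%). Without fl/fl library 1 or 2 none of the 10 was called by edgeR, although 2 had an unadjusted p under 0.05 in each fit, without KO library 2 the only one was Pbrm1, and without KO library 1 there were 3, Smarca2 being added. DESeq2 called Pbrm1 alone. The median log2 fold change of the 10 was 0.09, against 0.02 over all genes tested. With a GC content offset the median of the 10 was -0.06, and 3 of them were above 0 in place of 7. In 8 of the 10 the 2 genotypes did not overlap (5 higher and 3 lower in KO), where 57.6% of all genes tested did not overlap. Summed over the 10 genes, the level was 1041 and 1098 CPM in KO, against 1067 and 1066 CPM in fl/fl.

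**Figure D1:**
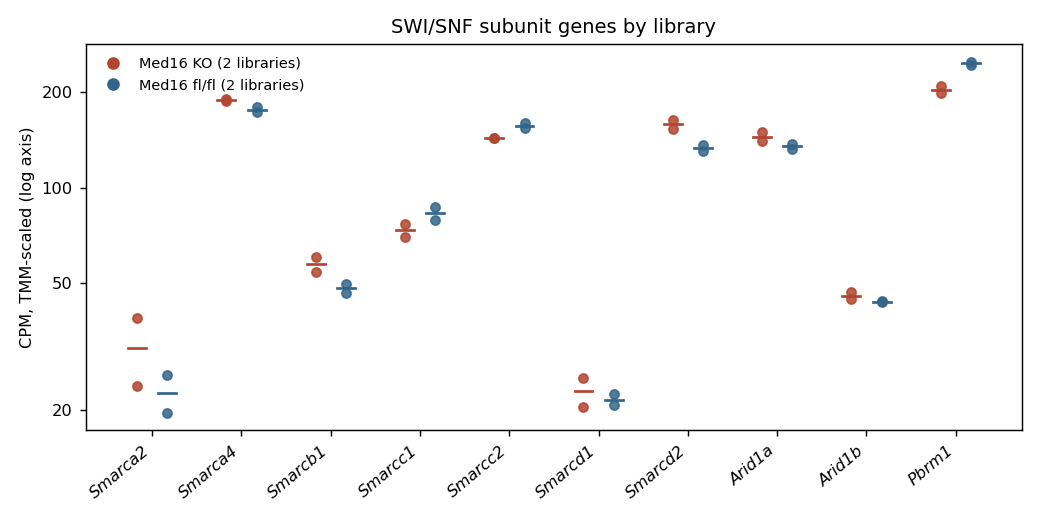
TMM-scaled CPM (log axis) of each SWI/SNF subunit gene, with a point for each library and a bar at the mean of the 2 libraries of a genotype. Pbrm1 is lower in both Med16 KO libraries (198 and 209 CPM) than in either Med16 fl/fl library (249 and 244 CPM), and the 2 KO libraries of Smarca2 lie far apart (23.7 and 39.0 CPM).

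The promoters of the 2 genes called by edgeR are shown, and they differ in base composition. Whether promoter composition bears on the fold change of either gene was not tested. Each window spans 250 bases before to 50 bases after the start in RefSeq, on the gene's own strand in build GRCm38.p6, whereas the counts were made on GRCm39. Capitals mark the GC box GGGCGG, searched on both strands with overlaps allowed.
Pbrm1, chr14:31018888-31019187, plus strand: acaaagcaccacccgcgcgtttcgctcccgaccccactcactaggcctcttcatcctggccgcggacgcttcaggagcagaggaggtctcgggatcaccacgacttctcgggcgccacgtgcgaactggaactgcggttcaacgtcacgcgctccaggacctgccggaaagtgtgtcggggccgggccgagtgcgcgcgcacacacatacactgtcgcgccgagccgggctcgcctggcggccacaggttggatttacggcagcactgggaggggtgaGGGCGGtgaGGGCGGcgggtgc
Smarcd2, chr11:106267583-106267882, minus strand: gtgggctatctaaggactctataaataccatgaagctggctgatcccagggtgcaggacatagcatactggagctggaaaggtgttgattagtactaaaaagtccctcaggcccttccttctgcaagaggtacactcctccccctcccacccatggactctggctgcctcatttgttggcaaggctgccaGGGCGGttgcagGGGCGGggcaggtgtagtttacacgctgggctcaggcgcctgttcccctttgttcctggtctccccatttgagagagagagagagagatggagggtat
The Pbrm1 window holds 35 CG dinucleotides and the Smarcd2 window holds 4, against a median of 20 over 11816 windows of genes tested. At most 4 were held by 11.4% of those windows. All 10 genes matched the RefSeq table, with 11 windows since Arid1a has 2. The other 9 windows held between 22 and 48 CG dinucleotides. A GC box was found for 10 of 10 genes, against 60.9% of windows of genes tested and 35.7% of all 32851 windows. The letters AGATAA, 1 form of the GATA motif, were found on either strand for 0 of 10 genes, against 6.75% of windows of genes tested. With TGATAA, a form added after the windows were seen, the count was 1 gene, Arid1a, against 11% of windows, and other forms were not searched. The CACCC motif, CCNCNCCC, was found for 7 of 10 genes, against 66.2%, and the ETS motif, CCGGAAGT, for 0, against 8.23%, both on either strand with overlaps allowed. A match to the TATA box letters, TATAAA on either strand, was found in the Smarcd2 window alone among the 10 genes, against 7.19%. It lay at -231 from the start, and the position of a match was not part of the search.

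Pbrm1 encodes the polybromo subunit, whose bromodomains bind acetylated histones and which defines PBAF. It was measured at 198 and 209 CPM in the KO libraries and at 249 and 244 CPM in the fl/fl libraries. Both KO libraries were below both fl/fl libraries. The log2 fold change was -0.28 (SE 0.07, adjusted p = 0.0081). The transcript of Pbrm1 has the lowest GC content of the 10, 41.8%, within the lowest of 5 GC bins of the genes tested, a bin with a median log2 fold change of -0.19. With a GC content offset the value was -0.09 (adjusted p = 0.437), and with a transcript length offset it was -0.17 (adjusted p = 0.0977), so the call ended under both. It also ended without fl/fl library 1 (-0.28, adjusted p = 0.0985) and without fl/fl library 2 (-0.30, adjusted p = 0.0579). Exons of Pbrm1 overlap those of Gnl3, on the opposite strand, by 15 bases, and Gnl3, chosen after its values were seen, had a log2 fold change of 0.18 (SE 0.19, adjusted p = 0.577).

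Smarcd2 encodes a core subunit that is known for its need in neutrophil granule formation. It was measured at 153 and 164 CPM in KO and at 131 and 136 CPM in fl/fl, with the genotypes apart. The log2 fold change was 0.25 (SE 0.08, adjusted p = 0.044). Markers of neutrophil progenitors moved with genotype beside it: 7 of 8 primary granule genes were higher and none lower by edgeR or DESeq2, with a summed level of 4703 and 4863 CPM in KO, against 2189 and 2178 CPM in fl/fl. Of all genes tested, 8.5% were higher by edgeR. The part of these markers in the Smarcd2 result was not tested. The transcript has a GC content of 56.9%, in the highest of the 5 GC bins, whose median was 0.24 on the log2 scale. The call ended with a GC content offset (0.07, adjusted p = 0.613), a transcript length offset (0.23, 0.0552), DESeq2 (0.24, 0.1001) and a filter of at least 1 count in any library (0.22, 0.077). It ended as well without KO library 2 (0.19, adjusted p = 0.0926), fl/fl library 1 (0.21, 0.442) or fl/fl library 2 (0.27, 0.266).

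**Figure D2:**
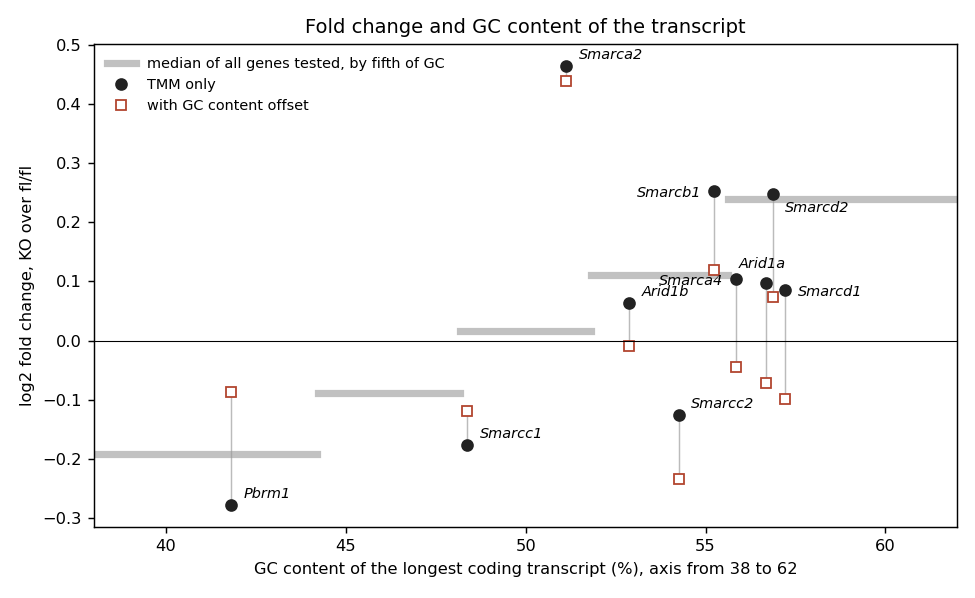
Log2 fold change, Med16 KO over Med16 fl/fl, of each of the 10 genes (vertical axis) against the GC content of its longest coding transcript (horizontal axis, from 38 to 62%), as TMM-scaled values (filled circles) and with a GC content offset (open squares). Grey bars are the medians of all genes tested in 5 bins of GC content, from -0.19 in the lowest bin to 0.24 in the highest. Pbrm1 at 41.8% GC and Smarcd2 at 56.9% GC both move towards 0 with the offset.

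Of the ATPases, Smarca4 was by far the more abundant. It was measured at 188 and 190 CPM in KO, against 172 and 180 CPM in fl/fl. The genotypes did not overlap, but the log2 fold change of 0.10 was not past the threshold (SE 0.07, 95% interval -0.05 to 0.26, adjusted p = 0.368), and it was -0.04 with a GC content offset. Smarca2 was measured at 23.7 and 39.0 CPM in KO, against 25.8 and 19.6 CPM in fl/fl. KO library 2 was the highest of the 4, and KO library 1 lay between the fl/fl libraries. Its log2 fold change of 0.47 had the widest interval of the 10, -0.03 to 0.96 (SE 0.23, adjusted p = 0.193). Without KO library 1 it was 0.77 and called (adjusted p = 2.0e-04), a value that rests on KO library 2 alone. Without KO library 2 it was 0.051 (adjusted p = 0.887), and without fl/fl library 2 it was 0.27 (adjusted p = 0.765). Exons of the antisense gene 4931403E22Rik overlap those of Smarca2 by 40 bases, and it had 3 and 21 counts in KO, against 9 and 15 in fl/fl. Whether counting used strand is not given in the sources used here.

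Smarcb1 (SNF5), a core subunit of BAF and PBAF, was measured at 54.5 and 60.5 CPM in KO, against 46.7 and 49.7 CPM in fl/fl. The genotypes did not overlap. The log2 fold change of 0.25 was as large as that of Smarcd2, but at this lower count its interval was -0.02 to 0.53 (SE 0.13, adjusted p = 0.207). The scaffold gene Smarcc1 (BAF155) was measured at 69.9 and 76.9 CPM in KO, against 86.8 and 79.2 CPM in fl/fl (log2 fold change -0.18, interval -0.41 to 0.06, adjusted p = 0.304). Its partner Smarcc2 (BAF170) was measured at 144 and 143 CPM in KO, against 154 and 159 CPM in fl/fl (-0.13, interval -0.29 to 0.04, adjusted p = 0.30). With a GC content offset the Smarcc2 value was -0.23 (adjusted p = 0.0536). Scaled by library size alone it was -0.073. Both scaffold genes were below fl/fl in each KO library, without passing the test. Smarcd1 (BAF60A), the paralog of Smarcd2, was measured at 25.3 and 20.4 CPM in KO, against 20.7 and 22.5 CPM in fl/fl. Its genotypes overlapped (0.08, interval -0.35 to 0.52, adjusted p = 0.831). Antisense genes lie over 7.13% and 5.56% of its exon length, and their counts were highest in KO library 2: Gm17349 had 1 and 25 in KO, against 5 and 5 in fl/fl, and Gm34939 had 15 and 36 in KO, against 10 and 18 in fl/fl. Reads in those stretches cannot be assigned to 1 strand with the setting unknown.

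Arid1a and Arid1b encode the large DNA-binding subunits that define BAF. Arid1a was measured at 140.1 and 149 CPM in KO, against 137 and 133 CPM in fl/fl. Its log2 fold change was 0.10 (SE 0.08, interval -0.08 to 0.27, adjusted p = 0.465). Arid1b was measured at 44.5 and 46.9 CPM in KO, against 43.6 and 43.9 CPM in fl/fl, a log2 fold change of 0.06 (SE 0.14, interval -0.23 to 0.36, adjusted p = 0.814). Both were above fl/fl in each KO library by TMM-scaled CPM and neither passed the test. A GC content offset turned the direction of both, to -0.071 for Arid1a and -0.0086 for Arid1b, and without KO library 2 they were at 0.039 and 0.011. For 7 of the 10 genes, the 95% interval lay wholly within a log2 fold change of 0.5 either way. The exceptions were Smarca2, Smarcb1 and Smarcd1.

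**Figure D3:**
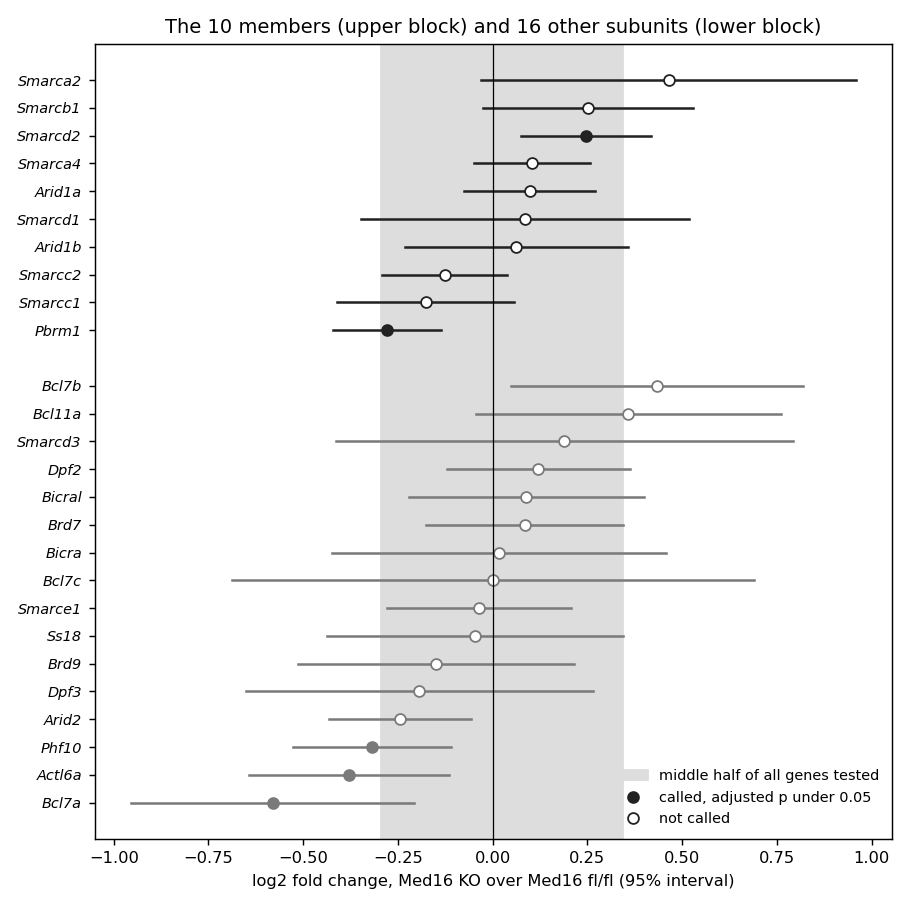
Log2 fold change, Med16 KO over Med16 fl/fl, with its 95% interval for the 10 genes (upper block) and for 16 other SWI/SNF subunit genes (lower block; Bcl11b, with under 2 CPM, is left out). Filled points passed the test and the grey band spans the interquartile range of all genes tested, from -0.29 to 0.34; among the 10, Pbrm1 at -0.28 and Smarcd2 at 0.25 are filled.

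To set levels between genes side by side, CPM were divided by the length of the longest coding transcript. Smarcd2 was highest in both genotypes, at 57.7 ± 2.74 CPM per kilobase in KO and 48.6 ± 1.34 in fl/fl (SD, n = 2 each, as in all values here). In KO it was followed by Smarcb1 at 34.6 ± 2.54, Smarcc2 at 31.4 ± 0.127, Smarca4 at 29.7 ± 0.288 and Pbrm1 at 25.7 ± 0.947 CPM per kilobase. In fl/fl the order after Smarcd2 was Smarcc2 at 34.3 ± 0.87, Pbrm1 at 31.2 ± 0.496, Smarcb1 at 29.1 ± 1.29 and Smarca4 at 27.6 ± 0.786. Pbrm1 thus ranked 5 in KO and 3 in fl/fl by this length, or 4 and 3 by the length of all annotated exons. Arid1a, Smarcc1 and Smarcd1 came next in both genotypes, at 17.7 ± 0.779, 12.7 ± 0.858 and 6.91 ± 1.03 CPM per kilobase in KO and 16.5 ± 0.401, 14.4 ± 0.932 and 6.52 ± 0.386 in fl/fl. The lowest were Smarca2 at 5.30 ± 1.82 in KO and 3.83 ± 0.739 in fl/fl, and Arid1b at 4.04 ± 0.15 in KO and 3.86 ± 0.0208 in fl/fl. Neighbours whose library ranges overlapped were Smarcd1 with Smarca2 and Smarca2 with Arid1b in KO, and Smarcb1 with Smarca4 and Arid1b with Smarca2 in fl/fl. With the length of all annotated exons in place of the longest transcript, Smarcd2 stayed first, but Smarcb1, with 7930 exon bases against 1660 in its longest coding transcript, ranked 7 in both genotypes.

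**Figure D4:**
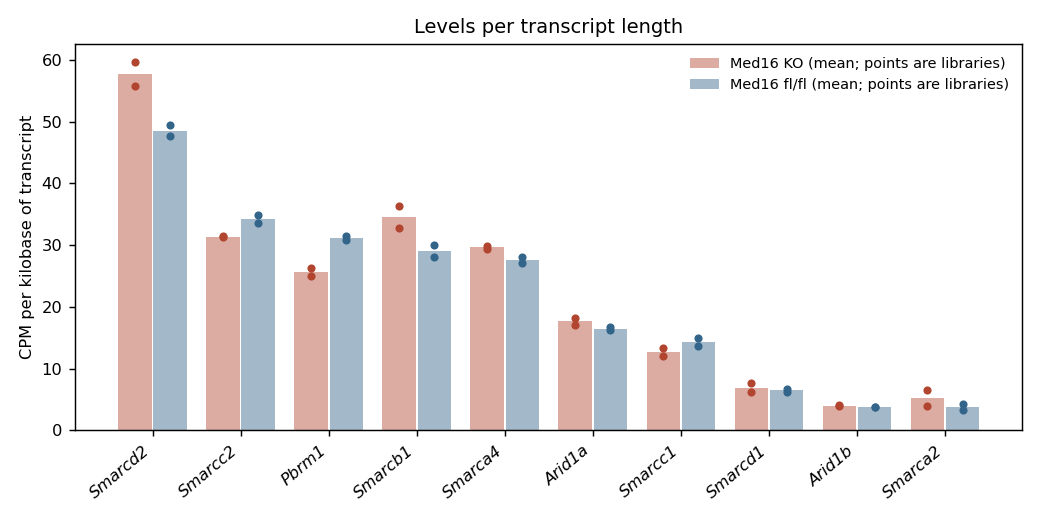
CPM per kilobase of the longest coding transcript, as bars from 0 at the mean of the 2 libraries with a point for each library, in the order of the Med16 fl/fl means. Smarcd2 is highest in both genotypes (57.7 in Med16 KO and 48.6 in Med16 fl/fl).

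Some subunits take the same place in the complex, so the ratio of such a pair within a library shows their balance free of any scaling between libraries. Per length, the log2 ratio of Smarca4 to Smarca2 was 2.87 and 2.18 in KO, against 2.63 and 3.09 in fl/fl. That of Smarcc1 to Smarcc2 was -1.38 and -1.23 in KO, against -1.16 and -1.35 in fl/fl, and that of Smarcd1 to Smarcd2 was -2.86 and -3.26 in KO, against -2.93 and -2.86 in fl/fl. The Arid1a to Arid1b ratio was 2.12 and 2.13 in KO, against 2.12 and 2.06 in fl/fl. In these 4 pairs the genotypes overlapped, with the same dominant member in every library, and the exact permutation test gave p = 0.667 for each (two-sided). The last ratio sets the BAF subunit Arid1a against the PBAF subunit Pbrm1, which mark 2 forms and do not take the same place. It was -0.55 and -0.53 in KO, against -0.91 and -0.93 in fl/fl, a difference of 0.38 with no overlap. Its exact permutation p of 0.333 is the smallest that 2 against 2 libraries allow, and 5 ratios were compared. With a GC content offset the difference was 0.02.

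**Figure D5:**
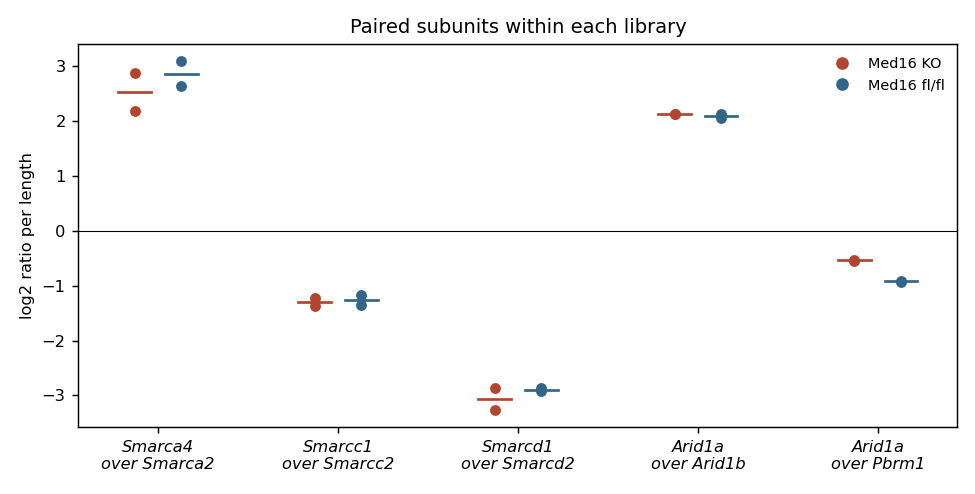
Log2 ratio per transcript length of 5 pairs of SWI/SNF subunit genes within each library (points) with the mean of the 2 libraries of a genotype (bars). The genotypes overlap in the first 4 pairs; Arid1a over Pbrm1 lies at -0.55 and -0.53 in Med16 KO and at -0.91 and -0.93 in Med16 fl/fl.

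The remaining SWI/SNF subunits gave 3 of 17 tested genes lower and none higher by edgeR, against 9.89% and 8.5% of all genes tested. Their median log2 fold change was -0.035. At an unadjusted p under 0.05 these counts were 4 and 1, and DESeq2 called 0. Without fl/fl library 1, 0 were lower and without fl/fl library 2, 1 was, and 1 was higher without either KO library. Bcl7a, an accessory subunit gene, was measured at 26.0 and 26.9 CPM in KO, against 44.5 and 34.7 CPM in fl/fl (-0.58, SE 0.18, adjusted p = 0.031). It lost its call with DESeq2 (adjusted p = 0.0546) and without fl/fl library 1 (-0.40, adjusted p = 0.506). Phf10, a PBAF subunit gene, was measured at 93.7 and 108 CPM in KO, against 131 and 120.1 CPM in fl/fl (-0.32, SE 0.10, adjusted p = 0.0329). Actl6a, which encodes the actin-related subunit BAF53A, was measured at 57.9 and 49.1 CPM in KO, against 70.8 and 68.4 CPM in fl/fl (-0.38, SE 0.12, adjusted p = 0.0457). The calls of Phf10 and Actl6a ended with DESeq2 (adjusted p = 0.0527 and 0.0887), library size as the only scaling (0.069 and 0.09) and a GC content offset (0.0871 and 0.0778). They also ended without fl/fl library 1 (0.343 and 0.319) or fl/fl library 2 (0.0804 and 0.243), and that of Actl6a without KO library 2 (0.0765). The most abundant of these genes, Arid2, the ARID subunit of PBAF, had 105 and 104 CPM in KO, against 120.3 and 128 CPM in fl/fl, at -0.24 (adjusted p = 0.0672). Its call depended on the setting: it passed without KO library 1 (adjusted p = 0.0267), without KO library 2 (0.0285) or with a filter of at least 1 count in any library (0.0446). It did not without fl/fl library 1 (0.234) or fl/fl library 2 (0.536), and an offset put it at -0.13 for GC content and -0.12 for transcript length. Of the 3 genes not tested, the neuronal Actl6b was at 0 counts in all 4 libraries, Dpf1 had 1 count in all, and Ss18l1 had between 7 and 14.

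Other remodeller families were set beside these. Ep400 was placed in the list of INO80 and SRCAP genes, although it is a subunit of neither complex. Of all genes tested, 9.89% were lower and 8.5% higher by edgeR. ISWI genes gave 3 of 10 lower and none higher (median -0.25), and 0 higher by DESeq2 or at an unadjusted p under 0.05. With a GC content offset 2 were lower (median -0.06), and with a transcript length offset 2 (median -0.11). With a filter of at least 1 count in any library 5 were lower (median -0.27). Rbbp4 was at -0.37 (adjusted p = 2.7e-04), Baz1b at -0.43 (4.2e-04) and the ATPase gene Smarca5 at -0.27 (0.0284). The Smarca5 call ended with a GC content offset (-0.06), a transcript length offset (-0.19) or library size as the only scaling (-0.21), and without KO library 2 (-0.15) or fl/fl library 2 (-0.27, adjusted p = 0.0704). CHD and NuRD genes gave 2 of 17 higher and 3 lower (median -0.13), or 1 and 1 without fl/fl library 1 and 0 and 0 without fl/fl library 2. Mbd3 was at 0.60 (adjusted p = 0.0014), the ATPase gene Chd4 at 0.24 (0.0149) and Chd1 at -0.44 (0.0149), and a GC content offset, which put them at 0.29, 0.16 and -0.28, ended all 3 calls. That of Chd1 also ended with a transcript length offset (-0.33). Without fl/fl library 2 these 3 calls ended too, and without fl/fl library 1 those of Chd4 and Chd1 did. INO80 and SRCAP genes gave 1 of 18 higher and 1 lower (median 0.01), or 3 and 2 without KO library 1, 2 and 2 without KO library 2, and 0 and 0 without fl/fl library 2. Ep400 was at -0.41 (adjusted p = 0.0016), Znhit1 at 0.67 (0.0386) and Ruvbl2 at 0.46, not past the threshold (0.062), though called without KO library 2 (0.50). The calls of Ep400 and Znhit1 ended without fl/fl library 2, at -0.31 and 0.40, and that of Znhit1 also with DESeq2 and with both offsets. Whether the SWI/SNF genes differed from these families was not tested.

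Other marrow cell types were followed by their markers. Of all 13052 genes tested, edgeR called 8.5% higher and 9.89% lower, and DESeq2 called 761 higher and 1047 lower. Megakaryocyte and platelet markers were higher for 9 of 10 tested by edgeR and for 4 by DESeq2, with a summed 249 and 241 CPM in KO, against 115 and 100.2 CPM in fl/fl. Late neutrophil markers were higher for 10 of 12 by either tool, with 16860 and 17182 CPM in KO, against 13406 and 13234 CPM in fl/fl. Monocyte and macrophage markers were higher for 4 and lower for 2 of 12 by edgeR, and higher for 4 and lower for 0 by DESeq2. By edgeR, B cell markers were higher for 1 of 9 (0 by DESeq2), T and NK cell markers were called for 0 of 6 by edgeR and by DESeq2 (1 at an unadjusted p under 0.05), and eosinophil, basophil and mast cell markers were lower for 1 of 8 (0 by DESeq2). Stem and early progenitor markers were higher for 3 of 7 (2 by DESeq2), and stromal and endothelial markers for 2 of 4 by either tool. By edgeR the latter were Col1a1 and Col1a2, while Cxcl12 and the endothelial marker Pecam1 were not called. Gp1bb and Emcn were at 0 in all libraries. What part such cells have in the level of any SWI/SNF gene was not tested.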

How the data were processed

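The authors deposited raw counts per gene, 1 table per library. The submitters' processing notes name HISAT2 2.1.0 and HTSeq 0.12.4 among the tools, with build GRCm39. The 5 table rows that name no gene held 67.3 to 67.7% of reads and were left out. For the comparison of genotypes, edgeR 4.0.16 (R 4.3.3) was used with filterByExpr, TMM scaling, a two-sided quasi-likelihood test on genotype alone, and Benjamini-Hochberg adjustment over all 13052 genes tested, with calls at an adjusted p under 0.05. The SE is the log2 fold change divided by the square root of F, and 95% intervals use the fit's degrees of freedom. The common biological coefficient of variation was 0.125, on 2 residual degrees of freedom. To these the fit added a median of 13.1 prior degrees of freedom, borrowed across genes. The p-values and intervals rest on both, and so mostly on spread shared between genes. The procedure was run on simulated counts with known changes, to check direction and scale. Those counts had the same spread for all genes and no GC trend. They therefore do not bear on how the calls depend on GC content.

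Lengths, GC content and overlaps came from GENCODE M21 (GRCm38), matched by identifier for 98.4% of genes tested. Offsets were loess smooths of each library's log2 ratio to the mean of all, over GC content or log length. Paralog ratios used counts plus 0.5. At this depth 1 count equals 0.139 to 0.148 CPM, and 0 counts allow up to 3 counts, 0.416 to 0.444 CPM (counting error only). The libraries of a genotype differed by more than sampling noise (chi-square per degree of freedom 6.63 in KO and 2.73 in fl/fl). They were treated as separate samples. The chi-square cannot tell separate animals from separate preparations of the same RNA. Named were the 10 genes, Med16 and, from each other remodeller list, the 3 with the smallest adjusted p and the most abundant. Members and lists were chosen with earlier results of these data known. Alternatives, including DESeq2 1.42.0 and limma 3.58.1 (voom), are given in the closing section.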

Additional observations from a re-analysis of the deposited data

How the results depend on the processing

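The number of SWI/SNF subunit genes called, 2 of 10, was 1 with DESeq2 or with a filter of at least 1 count in any library, and 0 when GC content or transcript length was offset, where 1 (Smarcc2) and 5 had an unadjusted p under 0.05. Leaving out 1 library gave 0 to 3. In such fits the lone library of a genotype is assumed to vary like the remaining pair. The direction turned with a GC content offset for Smarca4 (-0.045), Smarcd1 (-0.099), Arid1a (-0.071) and Arid1b (-0.0086), none of them called, and without KO library 1 for Smarcd1 (-0.089, with 0.22 at the other end of its range without 1 library). All 5 turned values lay within the intervals of the TMM-scaled fit. The other remodeller genes called, 13 of 62, were 8 with DESeq2, 5 with a GC content offset and 3 to 23 without 1 library. Over all genes, 2400 calls became 1158 to 3998 without 1 library. For the pair ratios, a GC content offset gave differences of 0.11 for Smarcc1 over Smarcc2, -0.063 for Arid1a over Arid1b and 0.016 for Arid1a over Pbrm1, and a transcript length offset gave -0.0081 for Arid1a over Arid1b. The cause of these moves was not tested.

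The titles number the libraries 1 and 2 in each genotype, with nothing to say that a number pairs them. The correlation across genes of the differences between replicates 1 and 2 was -0.0050 between genotypes. With the replicate number as a block, 2767 genes were called in place of 2400, of them 2390 shared, and 2 of the 10 SWI/SNF genes, Pbrm1 and Smarcd2. limma-voom, DESeq2 size factors and a mean count of 10 or more also left these 2 called. At this depth and with 2 libraries a genotype, the intervals of Smarcb1, Smarca2 and Smarcd1 were too wide to tell no change from a log2 change of 0.5.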

Other observations

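Chosen after their values were seen, the 4 subunits that mark PBAF were set side by side. Pbrm1, Phf10 and Arid2 were lower in both Med16 KO libraries than in either Med16 fl/fl library, at log2 fold changes of -0.28, -0.32 and -0.24, the last not past the threshold, where 57.6% of all genes tested did not overlap. With a GC content offset they were at -0.09, -0.26 and -0.13 and none was called, and DESeq2 ended the Phf10 call (adjusted p = 0.0527). Brd7 was measured at 69.0 and 82.5 CPM in KO, against 76.3 and 66.4 CPM in fl/fl, with overlapping genotypes (0.08, SE 0.12, adjusted p = 0.702). Of the subunits that mark the form without an ARID subunit, Brd9 was at -0.15 (adjusted p = 0.613) and Bicra at 0.02 (adjusted p = 0.971). Bicral was at 0.09 (adjusted p = 0.742), with 42.0 and 42.2 CPM in KO, against 40.9 and 38.3 CPM in fl/fl, without overlap. No test of the forms against each other was made.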
